A study of Mus musculus with 9 samples.

Results

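L1M elements are the ancient, mammalian-wide part of the LINE-1 (L1) family of transposable elements (TEs). The copies described here are the rows of the per-copy TE table whose class is LINE and whose repeat name begins with L1M followed by a capital letter from A to E or by a digit, which leaves out the young L1Md elements. This rule gave 31816 copies under 83 repeat names, 27.2% of the 116912 LINE copies and 5.1% of the 623916 repeat copies in the table. RNA-seq had been made from mouse embryonic stem cells (ESCs) of the C57BL/6 strain in 3 groups of 3 libraries, all from total RNA after removal of feeder cells. WT ESCs carry telomerase. G1 Terc-/- ESCs lack Terc, the RNA template of telomerase, and came from crosses of Terc+/- mice, so they are the earliest generation without it. G4 Terc-/- ESCs lack Terc too and came from crosses of G3 Terc-/- mice, so telomere loss had accumulated over generations before the line was derived. Line and generation cannot be told apart in these groups, nothing in the labels says that the libraries of a group came from separate cultures, and p-values therefore measure the spread between libraries, which may be technical. Terc is not a row of the TE table, so the labels could not be checked on it.

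An intact L1 carries a promoter and a pair of reading frames, ORF1 for an RNA-binding protein and ORF2 for an endonuclease and reverse transcriptase, and copies itself through an RNA that is written back into the genome. L1M copies stopped moving long ago and have been worn down by mutation and truncation. The letters A to E order the 3' end types roughly from younger to older, while names with a digit (L1M1 to L1M8) were given mostly to 5' and internal pieces. A few old L1 pieces have become parts of genes, and L1td1, an RNA-binding protein gene of pluripotent cells that descends from ORF1, is one of them.

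The age of these copies could be read from the table. The divergence field of the row names, read here as per mille mismatch from the consensus (the field is not named in the file), had a median of 279 for L1M copies against 36 for L1Md, 205 for Lx, 305 for MIR and 316 for L2, CR1 and RTE elements. Within L1M the medians were 271 for L1MA, 273 for L1MB, 280 for L1MC, 281 for L1MD, 290 for L1ME and 281 for the digit names. Copies were short, with a median of 220 bases and a longest copy of 5068 bases. Exactly whole values in every library (no tolerance) were held by 97.8% of L1M copies and 38.7% of L1Md copies, but most L1M copies had few or no counts, and among tested copies the shares were 78.4% and 14.9%. Of the 31816 copies, 23802 had fewer than 5 counts over all 9 libraries, and 501 passed the filter on low counts and were tested. Those 501 held 65.3% of the L1M counts, and the 10 largest copies alone held 25.7%.

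Library totals over all repeats lay between 918879 and 1137257 counts. In a principal component analysis of the 501 L1M copies, the first component took 54.6% of the variance and set the 3 G4 libraries apart from the other 6, and the second took 10.3% and set G1 apart from WT. Cell identity markers, read through the repeats in their exons, moved with the same groups. The ESC list could be read for 7 of 15 genes. It summed to 7120 to 7750 CPM of the library total in WT, 11100 to 12000 in G1 and 23500 to 28900 in G4. Tdgf1 alone gave 4050 to 4410 in WT, 6200 to 6810 in G1 and 15300 to 19500 in G4. In G4 against WT 5 of 6 tested genes rose and 0 fell. Its gene Tfcp2l1 also hosts L1M copies described below. The primitive endoderm list could be read for 7 of 12 genes and summed to 4330 to 4660 in WT, 1940 to 2040 in G1 and 143 to 187 in G4. Of its 5 tested genes 4 fell (Gata4, Sox7, Pdgfra and Col4a2) and Sparc rose. Dab2 was too low to be tested, with 3.02, 1.06 and 2.82 CPM in WT and 0 counts in all G1 and G4 libraries. Feeder fibroblast markers (4 of 11 readable) summed to 39.2 to 60.1 in WT, 72.8 to 95.7 in G1 and 114 to 122 in G4, with both tested genes, Col1a1 and Fn1, higher in G4 than in WT. The 2-cell-like list (3 of 9 readable, 0 tested) summed to 0 to 2.12, 0 to 1.05 and 13 to 27.6. The part that these differences in cell identity play in the L1M results below was not tested, and in bulk RNA fewer cells of a type cannot be told apart from less RNA per cell.

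Most L1M copies lay in genes, and most L1M counts came from exons. Copies with 0.5 or more of their length inside annotated exons were taken as exonic. Others were intronic, near (within 5000 bp of a gene) or far. Exonic copies were 2016 of 31816 (6.34%) but held 61.0% of the L1M counts. The 23843 intronic copies (74.9%) held 32.3%, the 2629 near copies 4.21% and the 3328 far copies 2.42%. Among the 324 exonic copies tested, most lay in 3' UTRs (242 copies), 19 in exons of non-coding genes, 5 in coding sequence and 4 in 5' UTRs. Copies ran against their gene more often than with it, in 64.7% of exonic and 68.7% of intronic copies. The library kit is not stated to keep strand, so RNA from a repeat and RNA from the gene around it cannot be told apart. On their own strand, the 1702 copies that lay whole within an exon held a median of 38.3% A, 25.1% T, 19.0% G and 16.6% C, and A outnumbered T in 92.2% of them, the A-rich strand known for L1. In the tested set, A outnumbered T in 90.7% of the 54 copies higher in G4 than in WT, in 78.9% of the 57 lower ones and in 92.5% of the 174 without a call.

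The L1M share of all counts hardly differed between groups. It was 4.45, 4.38 and 4.39% in the WT libraries, 4.34, 4.32 and 4.39% in G1 and 4.44, 4.35 and 4.4% in G4. The difference of G4 minus WT was -0.00871 percentage points (exact two-sided permutation test, p = 0.8), that of G1 minus WT -0.059 (p = 0.2) and that of G4 minus G1 0.0503 (p = 0.2), where 3 against 3 libraries cannot go below p = 0.1. Exonic copies gave 61.2% ± 2.32 (SD, n = 3) of L1M counts in the WT group, against 60.2% ± 1.6 in G1 and 61.6% ± 4.23 in G4. Copies more than 5000 bp from any gene gave 2.32, 2.1 and 1.95% of L1M counts in the WT libraries, 2.47, 2.51 and 2.4% in G1 and 3.03, 2.34 and 2.69% in G4. The WT libraries thus lay below all G1 and all G4 libraries, with the smallest p that the exact test allows (0.1) in both comparisons. As a share of all counts, the far L1M copies gave 0.103, 0.0921 and 0.0857% in WT, 0.107, 0.108 and 0.105% in G1 and 0.134, 0.102 and 0.118% in G4, so that WT and G4 overlapped (exact permutation p = 0.2) and WT and G1 did not (exact permutation p = 0.1). On that same basis, repeats other than L1M far from genes gave 8.19, 8.16 and 8.06% in WT, 8.91, 9.05 and 8.77% in G1 and 6.78, 6.78 and 6.69% in G4 (exact permutation p = 0.1 for G1 and for G4 against WT).

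The sequences of 3 loci are printed because they show ancient L1 pieces that are parts of genes named in the results. In L1td1 on chromosome 4 (mm10, plus strand), a pair of L1MEi copies forms coding sequence: the first line shows a stretch of coding exon at chr4:98733779-98734078, where capitals mark the L1MEi bases, and the second shows the first 300 bases of the other L1MEi copy at chr4:98737452-98737751, all of it L1MEi. The third line is from an exon of the long non-coding RNA Platr4 at chr3:41488813-41489112 (mm10, minus strand), where capitals mark first an L1M4 copy and then, after a short gap, an L1MB3 copy. The fourth is the promoter window of the RefSeq long non-coding RNA gene Gm42211 (250 bases before to 50 after its start) at chr3:37694886-37695185 (mm10, minus strand), whose last 185 bases, in capitals, belong to an L1MA4A copy. All sequences are from the GENCODE or RefSeq reference and are written 5' to 3' along the gene.
L1td1 first copy: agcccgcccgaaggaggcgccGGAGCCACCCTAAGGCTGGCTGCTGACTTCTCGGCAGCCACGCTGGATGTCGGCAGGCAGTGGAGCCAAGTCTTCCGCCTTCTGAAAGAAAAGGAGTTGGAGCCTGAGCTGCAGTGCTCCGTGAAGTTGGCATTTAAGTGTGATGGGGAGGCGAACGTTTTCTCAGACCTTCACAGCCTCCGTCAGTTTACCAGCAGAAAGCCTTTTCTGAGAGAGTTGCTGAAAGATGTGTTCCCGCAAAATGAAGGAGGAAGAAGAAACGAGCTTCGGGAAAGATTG
L1td1 second copy: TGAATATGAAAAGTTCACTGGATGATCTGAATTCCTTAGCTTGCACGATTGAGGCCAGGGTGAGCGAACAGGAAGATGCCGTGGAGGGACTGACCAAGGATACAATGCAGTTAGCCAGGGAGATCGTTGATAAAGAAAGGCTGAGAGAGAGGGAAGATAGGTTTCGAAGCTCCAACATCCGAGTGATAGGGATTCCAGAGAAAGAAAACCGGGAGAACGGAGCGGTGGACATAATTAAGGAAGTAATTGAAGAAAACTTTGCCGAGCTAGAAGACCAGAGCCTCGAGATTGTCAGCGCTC
Platr4 exon: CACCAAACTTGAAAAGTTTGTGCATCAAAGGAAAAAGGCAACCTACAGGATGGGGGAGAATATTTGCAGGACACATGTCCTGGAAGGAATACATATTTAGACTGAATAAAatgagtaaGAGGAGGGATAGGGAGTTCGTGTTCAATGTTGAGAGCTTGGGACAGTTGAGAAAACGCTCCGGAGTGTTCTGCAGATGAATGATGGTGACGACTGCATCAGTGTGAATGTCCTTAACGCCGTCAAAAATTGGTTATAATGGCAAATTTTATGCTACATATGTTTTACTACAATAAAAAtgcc
Gm42211 promoter window: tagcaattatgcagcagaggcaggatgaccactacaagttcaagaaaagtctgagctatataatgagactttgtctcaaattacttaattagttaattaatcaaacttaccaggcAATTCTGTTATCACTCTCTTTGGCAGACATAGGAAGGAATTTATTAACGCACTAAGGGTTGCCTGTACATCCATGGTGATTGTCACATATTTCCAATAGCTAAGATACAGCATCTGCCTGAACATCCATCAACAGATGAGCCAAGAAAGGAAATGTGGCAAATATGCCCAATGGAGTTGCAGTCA
The L1MEi bases of the first L1td1 stretch held 53% G and C, the L1MA4A bases of the Gm42211 window 41.1% and the Platr4 copies 40.3%.

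The 5 copies with the highest mean CPM lay in 3 genes. (From here on CPM uses the library total as scaled by edgeR's TMM method. Fold changes are from edgeR's quasi-likelihood test over all tested copies with Benjamini-Hochberg adjustment.) The second L1td1 copy led, with 3140, 3180 and 3090 CPM in WT, 3560, 3630 and 3500 in G1 and 3140, 3470 and 3430 in G4. Its log2 fold change was 0.18 ± 0.06 (SE, adjusted p = 0.0716) for G1 against WT and 0.09 ± 0.06 (adjusted p = 0.23) for G4 against WT. G1 libraries lay above all WT libraries, but neither difference passed the test, while repeats other than L1M in the exons of L1td1 rose by 0.27 in G1 (adjusted p = 0.00413). The L1M4 copy in the 3' UTR of Tceal9, an X-linked gene of the TCEAL family, gave 2530, 3080 and 2970 CPM in WT, 2180, 1800 and 2070 in G1 and 1020, 1180 and 1100 in G4. It fell by 1.38 on the log2 scale in G4 against WT (SE 0.09, adjusted p = 9.94e-13) and by 0.51 in G1 against WT (SE 0.08, adjusted p = 0.000203), and the 3 groups did not overlap. A pair of L1MA6 copies in the 3' UTR of Pmaip1, the pro-apoptotic BH3 gene also called Noxa, rose in G4. The larger gave 1030, 1010 and 1040 CPM in WT, 1140, 1130 and 1070 in G1 and 1330, 1550 and 1430 in G4, a rise of 0.49 ± 0.08 against WT (adjusted p = 1.31e-05). The first L1td1 copy ranged from 909 to 1010 CPM in WT, from 1090 to 1160 in G1 and from 1010 to 1130 in G4. These single copies weigh heavily on sums: L1td1 held 37.1% of all L1ME counts, the 3 L1MA6 copies of Pmaip1 44.5% of L1MA counts, Tceal8 18.6% of L1MD, Tceal9 18.3% of the digit names, Cdc20 11.4% of L1MB and Alyref 7.13% of L1MC.

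Summed by group, 5 of the 6 L1M groups fell in G4 against WT and 1 rose with TMM scaling, none by more than 0.25 on the log2 scale. The digit names had 11520, 11890 and 11510 CPM in WT, 11200, 10800 and 11130 in G1 and 9810, 9846 and 9767 in G4, and fell by 0.25 on the log2 scale against WT (SE 0.03, adjusted p = 6.1e-07). L1MD had -0.23 (adjusted p = 0.000113) and L1MB -0.2 (adjusted p = 3.24e-05). L1MC had -0.145 (adjusted p = 0.00179) and L1ME -0.14 (adjusted p = 0.00215), both falls that passed the test. L1MA rose by 0.09 (adjusted p = 0.0485), from 5901 ± 55 CPM (SD, n = 3) in WT to 6262 ± 239 in G4. The L1MA call was lost with DESeq2's size factors (adjusted p = 0.072), without G4 replicate 2 (adjusted p = 0.0725), without G4 replicate 3 (0.153) and without WT replicate 3 (0.0511). In G1 against WT only L1MD differed, a fall of 0.15 (SE 0.04, adjusted p = 0.0182) that was lost without G1 replicate 1 (adjusted p = 0.0702) or G1 replicate 2 (0.0507). Against G1, G4 was lower in L1MB (-0.23, adjusted p = 9.07e-06) and L1ME (-0.18, adjusted p = 0.000227). It was also lower in the digit names (-0.17, adjusted p = 8.08e-05) and L1MC (-0.17, adjusted p = 0.000554).

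**Figure D1:**
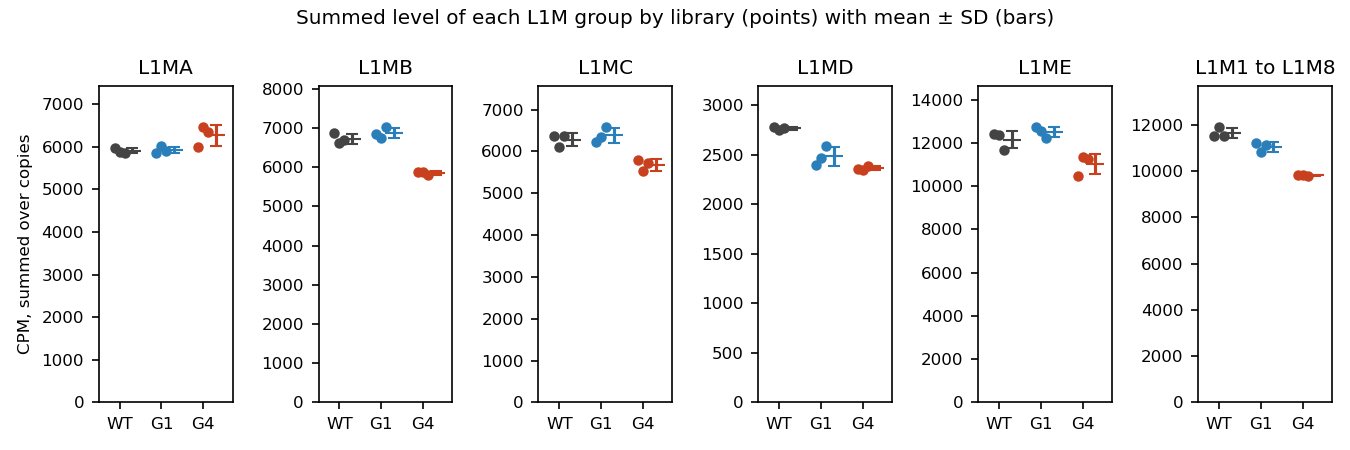
Summed CPM of the 6 L1M groups in each library (points; y axis from 0), with the mean and SD of the 3 libraries of WT, G1 and G4 as bars. G4 lies below WT in all panels except L1MA, where the G4 mean is 6262 against 5901 CPM in WT.

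The directions of L1MA, L1MC, L1ME and the digit names changed with the scaling or without single genes, while L1MB and L1MD stayed below WT under both changes. Scaling by library totals instead of TMM moved the median of all sums from 0.01 to 0.16, and under it L1MC (0.001) and L1ME (0.006) turned to the other sign. L1MB (-0.053, adjusted p = 0.164) and L1MD (-0.08, adjusted p = 0.104) lost their calls, and the digit names still fell (-0.1, adjusted p = 0.0035). Relative to the median of all sums, the median of the 6 L1M groups stood at -0.185 with TMM, a difference that a change of scaling leaves nearly as it is by construction. Without the copies of the gene that leads each group (chosen after seeing the data), L1MA turned from a rise to a fall (-0.15, adjusted p = 0.0061) and the digit names lost their fall (0.006, adjusted p = 0.897), while L1ME fell further (-0.23, adjusted p = 4.73e-06). With only copies free of any exon overlap, L1MB had -0.29 (adjusted p = 3.54e-05), L1MD -0.175 (adjusted p = 0.0444), L1MC -0.145 (adjusted p = 0.0181) and the digit names -0.14 (adjusted p = 0.0435). L1MA and L1ME had -0.14 and -0.14 without a call.

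**Figure D2:**
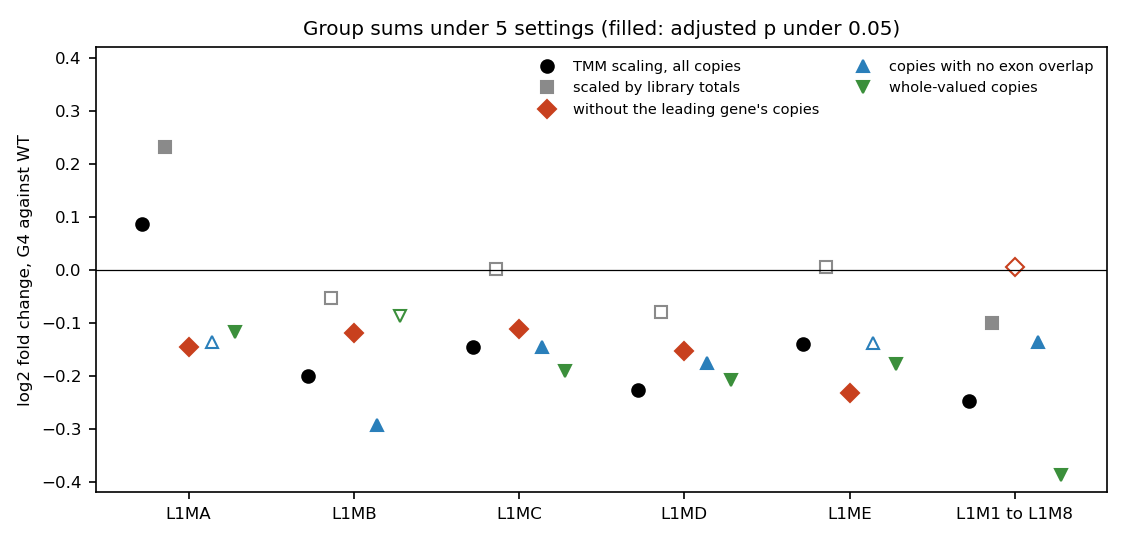
Log2 fold change of G4 against WT (y axis) for the 6 L1M group sums under 5 settings, filled where the adjusted p was under 0.05. L1MA lies at 0.09 with TMM and at -0.15 without the Pmaip1 copies, and the digit names move from -0.25 to 0.006 without the Tceal9 copy.

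At the level of repeat names, 77 L1M names were tested. In G4 against WT 5 rose and 25 fell (6.49% and 32.5%), where 23.1% of all 853 names rose and 23.4% fell. Their median log2 fold change was -0.18 against 0 for all names. With library totals, which moved the median of all names to 0.135, 12 rose and 11 fell. Of all names 286 rose and 136 fell under that scaling. The median of L1M names minus that of all names was -0.179 with TMM, and a change of scaling moves both medians alike. In G1 against WT 1 rose (L1MEi) and 2 fell (L1ME4c and L1M4), 1.3% and 2.6% of the 77, where 5.51% and 6.33% of all names did, and with library totals 1 rose and 4 fell. Of all names 48 rose and 66 fell with library totals. In G4 against G1 4 rose and 24 fell (5.19% and 31.2%) with 19.5% and 23.0% among all names, and with library totals 10 rose and 7 fell. There 260 of all names rose and 101 fell with library totals.

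Among names with at least 50 counts per library, the largest falls in G4 were in L1ME4c, L1MEb, L1MC5a and L1M4. L1ME4c had 329, 315 and 351 CPM in WT, 231, 234 and 213 in G1 and 149, 160 and 157 in G4. It fell by 1.09 ± 0.09 against WT (SE, adjusted p = 3.14e-09). No pair of groups overlapped, which was a condition for naming repeat names. A single copy in the imprinted zinc finger gene Peg3 gave 63.5% of its counts, and the copies without exon overlap had a log2 fold change of -0.40 with no call (adjusted p = 0.239). L1MEb had 338, 318 and 291 CPM in WT, 324, 362 and 328 in G1 and 201, 144 and 168 in G4. It fell by 0.89 ± 0.11 (adjusted p = 8.88e-07), and a copy in Ncl, the gene of the nucleolar protein nucleolin, gave 62.8% of its counts. L1MEb copies without exon overlap had -0.03 with no call (adjusted p = 0.959). L1MC5a, where no copy gave more than 15.3%, fell by 0.44 ± 0.1 (adjusted p = 0.00125) and by 0.58 in copies without exon overlap (adjusted p = 0.000877). L1M4 had 4890, 5510 and 5230 CPM in WT, 4800, 4430 and 4680 in G1 and 3740, 3940 and 3850 in G4, a fall of 0.44 ± 0.04 (adjusted p = 7.85e-08). The Tceal9 copy gave 43.5% of L1M4 counts, and without it the remaining copies rose by 0.27 (adjusted p = 1.05e-05), while those without exon overlap fell by 0.22 (adjusted p = 0.00667).

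The rises were fewer. L1ME3D rose by 0.65 ± 0.15 (adjusted p = 0.00139), from 61.2, 78.2 and 83.4 CPM in WT and 64.6, 87.5 and 82.8 in G1 to 106, 130 and 114 in G4, with 28.2% of its counts on a copy in Rfx5, and copies without exon overlap had -0.76 with no call (adjusted p = 0.151). L1M3e rose by 0.51 ± 0.08 (adjusted p = 2.2e-05), from 256 ± 8.14 CPM (SD, n = 3) in WT to 365 ± 14.3 in G4. A copy assigned to Gabpa gave 50.3% of its counts, and copies without exon overlap rose by 0.92 (adjusted p = 7.21e-05). L1MA6 rose by 0.3 ± 0.05 (adjusted p = 6.99e-05), but without the copies of Pmaip1, which lie in a 3' UTR, it fell by 0.29 (adjusted p = 0.0112). In G1 against WT, L1ME4c fell by 0.55 ± 0.09 (adjusted p = 0.000187) and L1M4 by 0.17 ± 0.04 (adjusted p = 0.0189). The L1M4 call was lost without WT replicate 2 (adjusted p = 0.117) or G1 replicate 2 (0.118). Without the Tceal9 copy, the remaining L1M4 copies rose in G1 by 0.16 (adjusted p = 0.0158). Copies without exon overlap had no call in G1, with -0.08 for L1M4 (adjusted p = 0.684) and -0.29 for L1ME4c (0.728). L1MEi, of which the larger L1td1 copy gave 75.9%, rose in G1 by 0.21 ± 0.06 (adjusted p = 0.0179), a call lost without WT replicate 3 (adjusted p = 0.0762), G1 replicate 1 (0.0818) or G1 replicate 2 (0.0815).

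**Figure D3:**
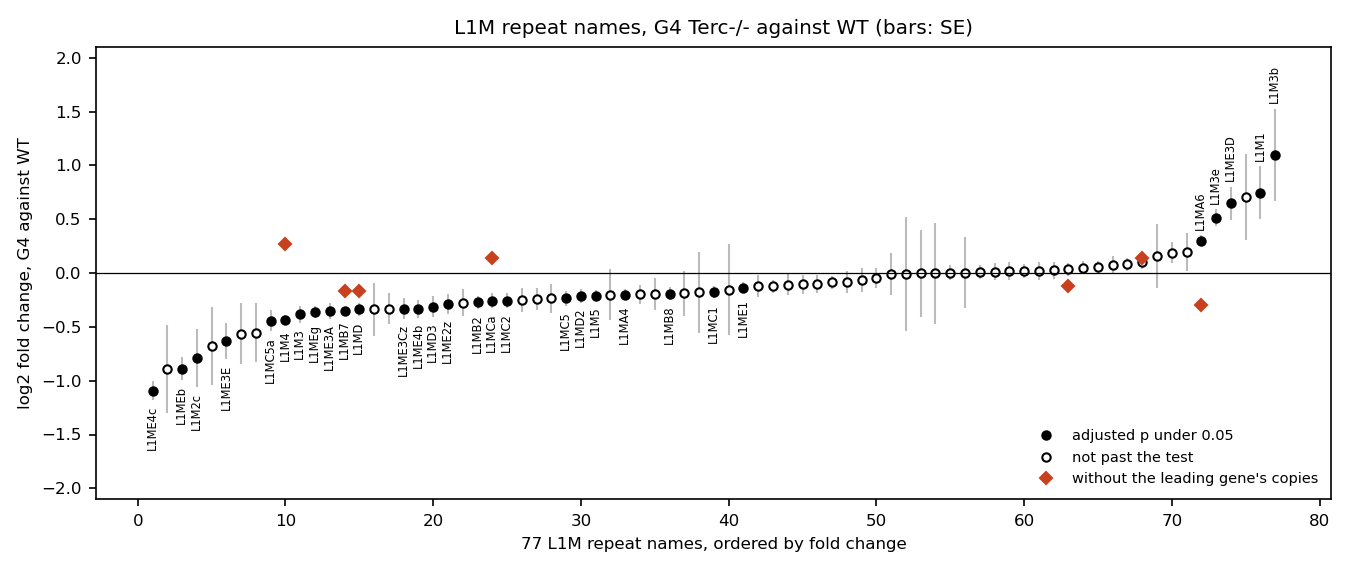
Log2 fold change of G4 against WT with its SE (y axis) for the 77 L1M repeat names, ordered from the largest fall to the largest rise (x axis); filled points passed the test, and diamonds give the value without the copies of the leading gene where it differs. L1M4 moves from -0.44 to 0.27 and L1MA6 from 0.3 to -0.29.

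At the level of single copies, 85 of 501 L1M copies rose and 96 fell in G4 against WT (17.0% and 19.2%), where 21.3% of all 13278 tested copies rose and 21.3% fell. Of the 181 called, 174 (96.1%) had no overlap between the WT and G4 libraries, as did 95.8% of the called copies of all repeats. By more than 2-fold 56 rose and 56 fell (11.2% each), against 15.5% and 15.1% of all copies. Called copies were 38.0% of the exonic ones (60 up, 63 down of 324), 25.8% of the intronic ones (12 and 21 of 128), 48.8% of the near ones (11 and 9 of 41) and 5 of the 8 far ones (2 and 3). The same positions over all repeats gave 42.3, 37.2, 48.9 and 55.6%. By group the called share ran from 31.1% of the digit names to 41.4% of L1MA, and L1ME had 16 rises and 29 falls of 115. Copies that ran with their gene were called in 38.8% of exonic and 31.6% of intronic cases, and those that ran against it in 37.6% and 23.3%.

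A large rise, among copies with at least 10 counts per library on average, was that of an L1MDa copy in the 3' UTR of Zic5, a zinc finger transcription factor gene (mm10 chr14:122459085-122459226). It had 8.33, 4.18 and 8.64 CPM in WT, 4.17, 1.77 and 8.8 in G1 and 52.8, 60.3 and 55.7 in G4, a log2 fold change of 2.97 ± 0.34 against WT (SE, adjusted p = 9.11e-08). G1 overlapped WT and G4 stood apart, the latter a condition for naming copies. An L1MC5 copy 524 bp from Rnf125, a ubiquitin ligase gene, rose by 2.03 ± 0.33 (adjusted p = 1.53e-05), and an L1ME3D copy in the 3' UTR of Rfx5, a regulator of MHC class II genes, by 1.96 ± 0.32 (adjusted p = 1.92e-05). In an exon of Vcam1, a cell adhesion gene, an L1MA7 copy rose by 1.81 ± 0.53 (adjusted p = 0.00716), a call lost without WT replicate 3 (adjusted p = 0.0562). An L1M2 copy 406 bp from Shld2, a gene of the shieldin complex that guards broken DNA ends, went from 3.12, 3.13 and 7.68 CPM in WT and 7.3, 12.4 and 13.2 in G1 to 17.6, 14.6 and 16.2 in G4 (1.74 ± 0.46, adjusted p = 0.00333).

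Further named rises lay in Tfcp2l1 and Platr4. All 4 tested L1M4 copies in the 3' UTR of Tfcp2l1, a transcription factor of naive pluripotency and a member of the ESC list above, rose step by step from WT to G1 to G4. The largest of them (chr1:118679258-118679477) had 136, 142 and 140 CPM in WT, 237, 247 and 228 in G1 and 441, 452 and 492 in G4, with a log2 fold change of 1.73 ± 0.11 for G4 against WT (adjusted p = 8.65e-13) and 0.77 ± 0.11 for G1 against WT (adjusted p = 3.24e-05). The other 3 had 1.66 to 1.79 and 0.71 to 1.01 for the same comparisons, and the 4 share 1 transcript. Repeats other than L1M in the exons of Tfcp2l1 gave 1.66 (adjusted p = 7.56e-30) and 0.78 (adjusted p = 5.44e-14). In Platr4, a non-coding RNA named for its association with pluripotency, the L1MB3 copy printed above had 12.5, 8.36 and 17.3 CPM in WT, 19.8, 15.9 and 18.7 in G1 and 39.6, 43.8 and 46.7 in G4 (1.75 ± 0.28, adjusted p = 1.75e-05). The L1M4 copy beside it rose by 1.11 ± 0.28 (adjusted p = 0.00241), and the gene's other exonic repeats had 0.71 without a call (adjusted p = 0.0517).

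The falls reached lower. An L1M4 copy in an intron of Slc44a3, a choline transporter-like gene (chr3:121519444-121519646), had 21.9, 19.8 and 26.9 CPM in WT, 9.39, 4.43 and 15.4 in G1 and 0 counts in all G4 libraries, at least 23.9-fold lower than WT when 3 counts over the 3 libraries are taken as the floor. Adamts9, a secreted metalloprotease gene on chromosome 6, held an intronic L1ME1 copy with 19.8, 33.4 and 25.0 CPM in WT, 20.9, 16.8 and 15.4 in G1 and 5.5, 0.914 and 1.8 in G4 (-3.27 ± 0.47, adjusted p = 3.5e-06). The L1MA4 copy in the 3' UTR of Emc7, a subunit gene of the ER membrane complex, fell by 2.85 ± 0.5 (adjusted p = 5.44e-05), from 16.7, 21.9 and 19.2 CPM in WT and 10.4, 24.8 and 18.7 in G1 to 1.1, 1.83 and 4.49. In these genes no G4 library reached the lowest WT library, which was a condition for naming the copies. Further 3' UTR falls were those of L1MA6 in Ctsl, the lysosomal protease cathepsin L (-2.56, adjusted p = 6.85e-07), and of L1M3 in P4ha1, a collagen prolyl hydroxylase subunit (-2.07, adjusted p = 0.000231). L1ME3E in Tirap, an adaptor of Toll-like receptors, had -1.99 (adjusted p = 5.32e-06). L1M3 in Aen, a nuclease gene induced by p53, had -1.86 (adjusted p = 0.000288). An L1M4a2 copy 1032 bp from Sptlc1, a gene of sphingolipid synthesis, fell by 1.86 (adjusted p = 0.000123). Leaving out any single library changed none of these calls in G4 against WT.

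**Figure D4:**
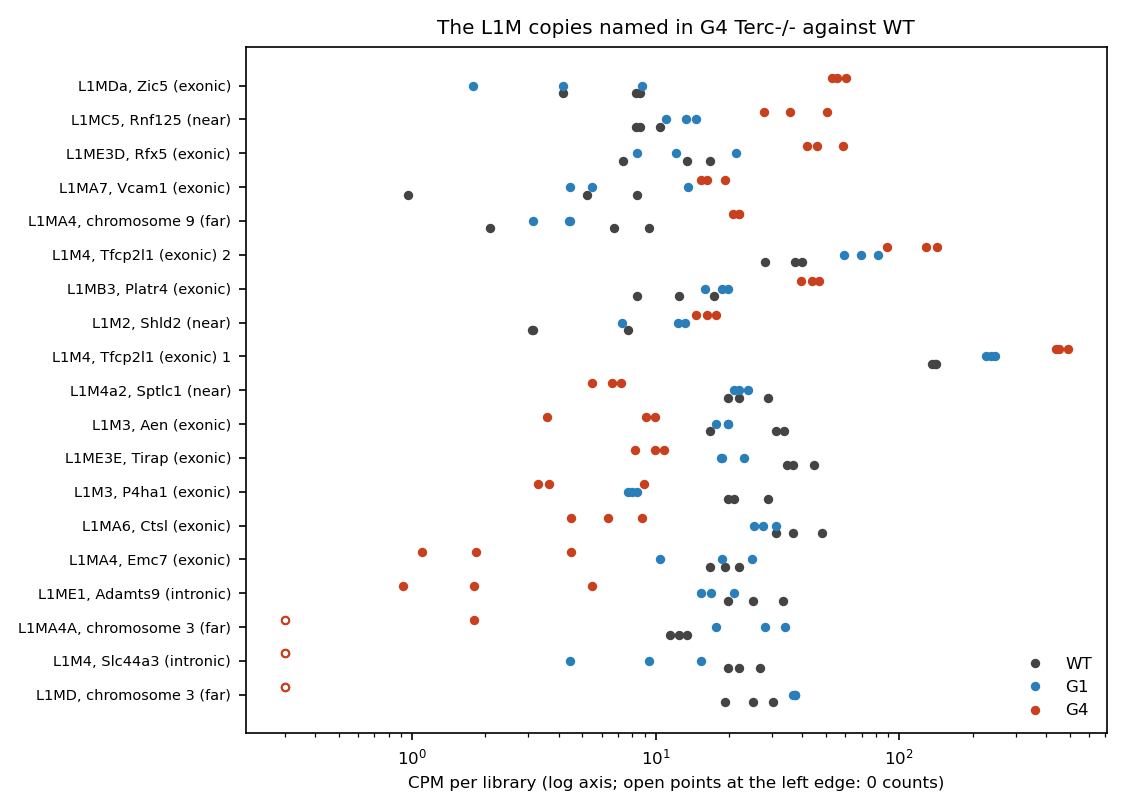
CPM in each of the 9 libraries (log x axis) for L1M copies named for their G4 change, with open points at the left edge for 0 counts. The choice of these copies required the 3 G4 libraries to lie outside the range of the WT libraries. The L1MD copy on chromosome 3 and the L1M4 copy of Slc44a3 have 0 counts in all 3 G4 libraries.

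Among the 8 tested copies far from genes, 3 falls lay side by side on chromosome 3 and come from the locus of the Gm42211 window printed above. RefSeq places Gm42211 at chr3:37690464-37694935 on the minus strand, while GENCODE, which set the positions here, has no gene within 5000 bp. An L1MD copy inside it (chr3:37693950-37694243) had 30.2, 25.1 and 19.2 CPM in WT, 36.5, 37.2 and 37.4 in G1 and 0 counts in G4, at least 25.6-fold lower than WT and at least 38.5-fold lower than G1. The L1MA4A copy that reaches into the promoter window (chr3:37694758-37695070) had 34 counts over the WT libraries, 49 over G1 and 1 over G4. Its G4 level was 0.0279 of that in WT (95% counting interval 0.000687 to 0.166), with adjusted p = 7.4e-05 in the edgeR test, but it lay under the mean of 10 counts per library set for named copies and was chosen after its values were seen. The L1MA4A copy upstream of it (chr3:37695894-37697051) had 37, 78 and 2 counts, 0.0513 of the WT level (0.00599 to 0.199), with an adjusted p of 4.95e-05. The low G4 level was shared by the neighbourhood, where 27 other repeats within 10000 bp of the L1MD copy held 166 counts over the WT libraries, 300 over those of G1 and 6 over those of G4. A far copy also rose. The L1MA4 copy at chr9:97281560-97281973 had 2.08, 9.4 and 6.72 CPM in WT, 3.13, 4.43 and 4.4 in G1 and 22, 21.9 and 20.7 in G4 (1.8 ± 0.43, adjusted p = 0.00138), and its 11 neighbours within 10000 bp held 21, 9 and 94 counts.

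Only 6 of the 501 tested copies (1.2%, against 0.7% of all tested copies) touched a promoter window. Of these 6, 3 were called in G4 against WT, where 36.1% of tested L1M copies and 42.6% of all tested copies were called. The share called among all tested copies that touch a promoter window was not counted. The 6 copies were looked up after their values had been seen. Besides the Gm42211 copy, an L1M4b copy shares 163 bases with the window of Ints12, an Integrator subunit gene, and 188 of its 415 bases lie in annotated exons at Gstcd (chr3:133091353-133091767). It had 116, 132 and 98.9 CPM in WT, 110, 93 and 95.7 in G1 and 167, 209 and 172 in G4, a rise of 0.67 ± 0.14 against WT (adjusted p = 0.000317), and other intronic repeats of Gstcd rose by 0.73 (adjusted p = 0.0004). The third, an L1M4b copy at the start of Lrba (chr3:86224548-86224932), rose by 1.02 ± 0.33 (adjusted p = 0.0152), a call lost without WT replicate 1 (adjusted p = 0.0579), WT replicate 2 (0.052) or G4 replicate 3 (0.0534).

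Called L1M copies moved with the rest of their gene. For each exonic copy, the gene was read a second time through its exonic repeats other than L1M, and for each intronic copy through its other intronic repeats, so that no L1M count entered. In G4 against WT 81 of the 123 called exonic copies had such a measure, covering 68 genes. Of the 81, 65 sat in a gene that was called itself (54 genes), all 65 in the copy's direction. By exonic repeats, 47.9% of 4462 genes were called. Of all 81, 80 had the same sign. For intronic copies 31 of 33 had a measure, 22 were in 18 called genes and all 22 shared the direction. By intronic repeats, 29.3% of 7680 genes were called, and 30 of the 31 copies had the sign of their gene. Ctsl is an example, with -2.56 for its L1MA6 copy and -2.20 for its other exonic repeats (adjusted p = 1.35e-13). Adamts9 had -3.27 for the copy and -2.95 for its other intronic repeats (adjusted p = 3.74e-19), Rfx5 1.96 and 1.82 (adjusted p = 1.15e-08), and Tirap -1.99 and -1.88 (adjusted p = 6.4e-20). The size differed in others: Aen had -1.86 for the copy and -0.66 for the gene. Across the 227 exonic copies with a measure, which share libraries and in part transcripts, Pearson's r between the fold changes was 0.88, and across the 123 intronic ones 0.79. Genes such as Zic5, Tceal9 and Scd1 had no other repeats that could be tested.

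**Figure D5:**
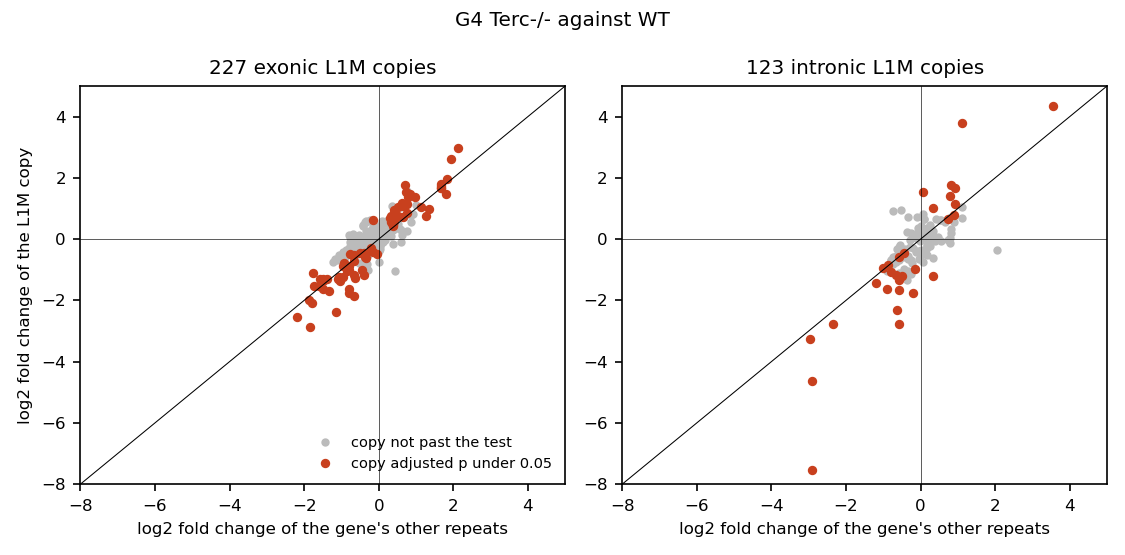
Log2 fold change (G4 against WT) of each L1M copy (y axis) against that of the other repeats of its gene (x axis), for 227 exonic (left) and 123 intronic copies (right); the line marks equal change. Copies that passed the test (coloured) share the sign of their gene in 80 of 81 exonic and 30 of 31 intronic cases. An intronic copy of Gm5091, at 4.48 with 6.73 for its gene's other repeats, lies beyond the x axis and is not drawn.

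Between G1 Terc-/- and WT few copies differed: 10 rose and 10 fell (2.0% each), where 2.41% and 4.36% of all copies did, and all 20 had no overlap between groups, as did 98.7% of the called copies of all repeats. The largest rise was that of an L1MC4 copy in an intron of Ybx3, a Y-box RNA-binding protein gene, with 10.4, 7.31 and 8.64 CPM in WT, 17.7, 22.2 and 37.4 in G1 and 4.4, 15.5 and 8.99 in G4 (1.53 ± 0.41, adjusted p = 0.019), a call lost without WT replicate 2 (adjusted p = 0.0937), WT replicate 3 (0.0763) or G1 replicate 3 (0.171). An L1MB7 copy in an intron of Mkrn1, a ubiquitin ligase gene, rose from 29.2, 34.5 and 37.4 CPM to 67.8, 63.8 and 63.8 in G1 (0.94 ± 0.21, adjusted p = 0.0052) and stood at 7.69, 10 and 14.4 in G4, below both. Ybx3 and Mkrn1 both lie on chromosome 6, which carried 16 of the 501 tested copies, and without chromosome 6 there were 9 rises and 10 falls in G1. The other named rises were those of Tfcp2l1. Of the falls, the L1M3 copy of P4ha1 went from 19.8, 20.9 and 28.8 CPM to 8.35, 7.97 and 7.7 in G1 (-1.52 ± 0.39, adjusted p = 0.0155), lost without WT replicate 3 (adjusted p = 0.0952), G1 replicate 2 (0.0539) or G1 replicate 3 (0.0545). The L1MA8 copy of Scd1, a desaturase of fatty acids, had 40.6, 31.3 and 36.5 CPM in WT, 24, 18.6 and 7.7 in G1 and 87.9, 73.1 and 76.4 in G4. Its change was -1.09 ± 0.28 in G1 against WT (adjusted p = 0.0166, lost without WT replicate 1 at 0.0655 or G1 replicate 3 at 0.109) and 1.12 ± 0.22 in G4 against WT (adjusted p = 0.000213), so that the groups differed from WT in opposite directions. The copies of Tirap (-0.94, adjusted p = 0.0277) and of Parva, an actin-binding adhesion gene (-0.76, adjusted p = 0.025), fell too. The Tirap call was lost without WT replicate 1 (adjusted p = 0.126), WT replicate 3 (0.0526), G1 replicate 1 (0.088) or G1 replicate 2 (0.11), and that of Parva without WT replicate 2 (0.0772), WT replicate 3 (0.139), G1 replicate 2 (0.155) or G1 replicate 3 (0.0904). Of the 17 exonic copies called in G1, 10 had a measure of their gene through other repeats, covering 7 genes. Among them, 7 copies sat in 4 called genes and all 7 shared the direction of their gene. The 4 Tfcp2l1 copies, which share 1 transcript, are among these 7, so the copies are not independent. Across the 227 exonic copies with a measure Pearson's r was 0.56 in G1 against WT, and across the 123 intronic ones 0.29. The share of all genes called in G1 against WT was not counted.

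Between G4 and G1 Terc-/- ESCs, which differ in generation and in line, 71 copies rose and 77 fell (14.2% and 15.4%), where 19.0% and 19.2% of all copies did, and 143 of the 148 (96.6%) had no overlap, as did 95.1% of the called copies of all repeats. The G1 libraries that serve as controls here are the ones compared with WT above. Among the largest rises were those of Zic5 (3.55 ± 0.36, adjusted p = 2.41e-08), the far L1MA4 copy on chromosome 9 (2.39 ± 0.46, adjusted p = 0.000205) and Scd1 (2.21 ± 0.25, adjusted p = 1.5e-07). The largest falls were those of the L1MD and L1MA4A copies beside Gm42211, of Slc44a3, where G4 was at least 9.71-fold lower, and of Emc7 (-2.77, adjusted p = 0.00011). Of the 97 called exonic copies, 71 had a measure of their gene through other repeats. The share of all genes called in this comparison was not counted. Of the 71, 67 had the sign of their gene. Of the 52 that sat in called genes (44 genes), 51 shared the direction. The exception was an L1MC3 copy in Cinp (chr12:110879176-110879292), a cyclin-dependent kinase 2 partner gene, at -1.34 (adjusted p = 0.0324) where the gene's other exonic repeats had 0.37 (adjusted p = 0.0125).

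Tested L1M copies had nearly equal counts of rises and falls in G4 against WT. So did all tested copies together, with 2824 rises and 2826 falls of 13278, a balance that TMM scaling largely sets. With library totals 93 L1M copies rose and 86 fell, and of all copies 2999 rose and 2612 fell. In G4 against WT the median of the 501 tested L1M copies was -0.07 and that of all tested copies -0.02. Young L1Md copies had a median of -0.30 with 100 rises and 189 falls of 850, whereas the L1_Mus, L1_Mm, L1_Rod and L1V names had 0.31 with 111 and 46 of 312, and Lx 0.15 with 117 and 77 of 439. The groups nearest in divergence, MIR (70 rises and 69 falls of 341, median 0.02) and L2, CR1 and RTE (45 and 52 of 223, median -0.10), had about as many rises as falls, as L1M did with 85 and 96. These counts are descriptions, since a difference between repeat groups was not tested and copies of 1 gene are not independent. Whole values were held by 91.2% of the tested MIR copies, more than in L1M.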

How the data were processed

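The authors made the libraries with a TruSeq kit and deposited 1 table of raw estimated counts per repeat copy for all 9 libraries. The submitters' processing notes name FastQC 0.11.9, STAR 2.5.3a, featureCounts and mm10. Values are not whole in 55092 copies, so the deposited estimated counts were rounded before testing. The columns named Control were taken as WT, 0 sample columns were unused, and the normalized table was not used. Copies, repeat names and L1M groups were filtered with filterByExpr, scaled with TMM on the totals of the whole table and tested with edgeR's quasi-likelihood test (edgeR 4.0.16, R 4.3.3) over all features and 3 groups, with Benjamini-Hochberg adjustment at 0.05. Scripts were tested on simulated data. Positions came from GENCODE M21 (55536 gene models). No columns were identical, and replicates differed by 1.54 to 1.98 chi-square per degree of freedom.

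The members and lists were chosen with earlier results of these data known. Copies were named if called, without overlap of the groups' libraries and averaging 10 or more counts: the top 10 by fold change each way for G4 versus WT, the top 4 for other comparisons and the top 3 far from genes, plus the 5 highest in CPM and the largest of each group. Repeat names averaging 50 or more counts followed the same rule with the top 4 and the top 2, plus the 3 with most counts. Alternatives were other scalings, filters, call rules and subsets, DESeq2 1.42.0, a replicate block and leaving out each library. A named copy is not reported here.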

Additional observations from a re-analysis of the deposited data

How the results depend on the processing

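Depth limits the single copies: 74.8% of L1M copies had fewer than 5 counts in all, and none of these passed the filter on low counts. The causes of the differences below were not tested, except that subsets hold fewer copies. Values follow the order higher, then lower.

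Copies called in G4 against WT were 20 and 29 among the 162 tested copies without exon overlap, 2 and 3 among the 8 copies over 5 kb from genes, and 56 and 56 with an added fold over 2. The lower count was 62 with no filter on low counts and 63 with a fold over 2 and an unadjusted p. In G1 against WT the counts were 1 and 1 without exon overlap, 0 and 0 over 5 kb from genes, 2 and 3 with the added fold, 3 and 2 with no filter, 6 and 4 with at least 5 counts in all, and 5 and 6 by DESeq2. In G4 against G1 they were 16 and 25 without exon overlap, 3 and 3 over 5 kb from genes, 39 higher with the added fold, 46 higher with an unadjusted p, and 39 lower with no filter. Leaving out 1 library gave 63 to 86 and 86 to 100 in G4 against WT, 5 to 9 and 5 to 9 in G1 against WT (5 higher without WT replicate 3, 6 higher without G1 replicate 3, 5 lower without G1 replicate 2), and 56 to 71 and 61 to 74 in G4 against G1.

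Repeat names called in G4 against WT were 12 and 11 with library totals, 3 and 15 without exon overlap, 1 and 6 over 5 kb from genes, and 1 and 1 with a fold over 2 under either p. The higher count was 3 by DESeq2 and 2 in whole-valued copies. In G1 against WT the counts were 0 and 0 without exon overlap and with the added fold, the lower count was 4 with DESeq2's size factors, library totals or a fit of both groups alone, 0 over 5 kb from genes and with an unadjusted p and fold over 2, and 1 without the leading genes. In G4 against G1 they were 10 and 7 with library totals, 1 and 12 without exon overlap, 1 and 7 over 5 kb from genes, and 0 and 0 with a fold over 2 under either p. Leaving out 1 library gave 3 to 5 and 21 to 27, 0 to 1 and 1 to 4, and 3 to 4 and 18 to 22 in the same order of comparisons: 3 higher in G4 without WT replicate 2, and in G1 0 higher without WT replicate 3, G1 replicate 1 or G1 replicate 2, 1 lower without WT replicate 2 or G1 replicate 2 and 4 lower without WT replicate 1.

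For the L1M groups no sum changed by 2-fold, so every call (L1MA 0.086, L1MB -0.2, L1MC -0.145, L1MD -0.226, L1ME -0.14 and digit names -0.247 in G4 against WT, L1MD -0.155 in G1 against WT, L1MB -0.23, L1MC -0.169, L1ME -0.182 and digit names -0.171 in G4 against G1) was lost under a fold over 2 with either p. In G4 against WT, L1MA lost its call by DESeq2 (0.078), with its size factors (0.083), in a fit of both groups (0.086), with no filter (0.09) and outside chromosome 6 (0.074), and turned without exon overlap (-0.137), over 5 kb from genes (-0.517), in whole-valued copies (-0.117) and without leading genes (-0.146). L1MB lost its call with library totals (-0.053) and in whole-valued copies (-0.087) and turned over 5 kb from genes (0.182). L1MC turned with library totals (0.001) and over 5 kb from genes (0.003), L1ME turned with library totals (0.006) and lost its call without exon overlap (-0.138) and over 5 kb from genes (-0.028), L1MD lost it with library totals (-0.08), and the digit names turned without leading genes (0.006). In G1 against WT, L1MD lost its call without exon overlap (-0.078) and without leading genes (-0.109) and turned over 5 kb from genes (0.095), while the digit names gained a call with library totals (-0.088) and in whole-valued copies (-0.144). In G4 against G1, L1MA gained a call with DESeq2's size factors (0.099), at least 5 counts (0.091), a fit of both groups (0.101) and library totals (0.238) and turned over 5 kb from genes (-0.523). L1MB lost its call with library totals (-0.072) and in whole-valued copies (-0.093) and turned over 5 kb from genes (0.141). With library totals, without exon overlap and over 5 kb from genes, L1MC had -0.011, -0.105 and -0.192 and L1ME -0.025, -0.064 and -0.021, all without a call. The digit names had -0.013 with library totals, -0.076 without exon overlap and -0.032 without leading genes, and L1MD gained a call over 5 kb from genes (-0.532). Leaving out 1 library gave 0.077 to 0.13 for L1MA in G4 against WT, -0.183 to -0.142 for L1MD in G1 against WT and 0.071 to 0.138 for L1MA in G4 against G1, called there without G1 replicate 2 (0.12) or G4 replicate 1 (0.138).

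The L1M share of counts differed by -0.179 percentage points in whole-valued copies for G4 minus WT, by -0.137 for G1 minus WT and by -0.0423 for G4 minus G1, and in copies without exon overlap by 0.0221 for G1 minus WT and -0.0527 for G4 minus G1. Intronic copies in a called gene of the same direction in G1 against WT numbered 2 by DESeq2. Replicate numbers showed no sign of pairing the libraries: deviations of L1M copies with the same number correlated between -0.086 and 0.096. At the low counts of most of these copies a weak pairing could be missed. With the replicate number as a block, 81 and 88 copies were called in G4 against WT, 8 and 9 in G1 against WT and 66 and 68 in G4 against G1, repeat names numbered 4 and 24, 1 and 2, and 4 and 22, and L1MA in G4 against WT lost its call (0.085, adjusted p = 0.0609).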
